A study of Mus musculus with 12 samples.

Results

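The corpus epididymidis of Dicer1 cKO mice was compared with that of control mice on 6 of the 12 whole transcript arrays of the series, and the remaining 6 arrays hold the cauda of both genotypes. The 3 cKO arrays come from Defb41iCre/wt;Dicer1fl/fl mice and the 3 control arrays from Dicer1fl/fl mice, all on a mixed C57Bl/6N and SV129 background. Both groups thus carry the floxed Dicer1 alleles, and only the cKO mice carry the Cre. The Defb41 promoter drives the recombinase in principal cells upstream, in initial segment and caput, so Dicer1 is lost before the corpus begins. The paired tissues of 1 mouse were pooled for each array, and the ages behind these arrays are not given in the sources used here. Genes were chosen by symbol: of 41345 probe-sets, those with 1 gene symbol gave 22180 genes, each shown by its brightest probe-set. The labels describe labelling for a miRNA array, whereas the methods and the probe-set identifiers are those of the Mouse Gene 2.0 ST array.

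Principal cells line the epididymal duct and set the fluid in which sperm mature. They secrete defensins, protease inhibitors and other small proteins that coat the sperm surface, and they move ions, organic solutes and water across the apical membrane. Dicer1 cuts precursor hairpins into mature microRNAs, which lower the stability and translation of messenger RNAs. Each segment of the duct has its own set of secreted proteins, and fluid made upstream flows through the segments that follow.

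SE below is the standard error of a log2 fold change, cKO minus control, from limma. The values are log2 intensities after robust multi-array averaging (RMA), and their median over all arrays was 5.23. Dicer1 itself gave 7.41, 7.61 and 7.59 in cKO mice, against 7.65, 7.37 and 7.45 in control mice, a difference of 0.05 (SE 0.12, adjusted p = 0.963), which checks no label since the deletion lies upstream. The 8 genes typical of the corpus averaged 9.85 to 10.68 on the cKO arrays and 10.99 to 11.29 on the control arrays. The 9 genes typical of the cauda averaged 4.40 to 4.61 on the cKO arrays and 4.23 to 5.84 on the control arrays, near the median of all values. High corpus and low cauda genes match the labelled region. Both sets were chosen with earlier results of these data known, so this is no independent check of the label. The corpus genes also separated the genotypes, all 8 having a negative fitted change, with a median of -0.38. Negative changes were not confined to them: of the 9 cauda genes 7 had one, with a median of -0.70, though their levels overlapped between the groups. The part of dissection in these changes was not tested. The tissue is a mixture of cell types, and fewer cells of a type cannot be told apart from less RNA per cell.

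Of 41345 probe-sets, limma called 0 (0%) after adjustment at the threshold of 0.05, and 3452 (8.35%) had an unadjusted p under 0.05. The methods' pairwise contrasts, which use each probe-set's own variance, also called 0. The counts that follow use the study's own unadjusted threshold for gene sets, p under 0.01 and over 1.5-fold. It was passed by 187 lower genes (0.843% of 22180) and by 342 higher genes (1.54%), of which 98 are on lists of interferon-stimulated or cell cycle genes and are not described further. No lower gene was on either of those lists. The gene lists described below were chosen with earlier results of these data known. Their shares past the threshold therefore describe the lists and test nothing. The stricter threshold, p under 0.002 and over 2-fold, was passed by 26 lower genes (0.117%) and 62 higher genes (0.28%).

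The 3 cKO arrays did not deviate alike. Of the 187 lower genes, 186 lay below all 3 controls on cKO replicate 1, 186 on replicate 2 and 148 on replicate 3. Their median deviation from the control mean was -1.165, -1.088 and -0.424 on the log2 scale. The 342 higher genes lay above all controls in 341, 342 and 315 cases, with median deviations of 1.281, 0.962 and 0.507. All 3 arrays took part in choosing these genes, so the counts describe the choice and test nothing.

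Each cKO array was then set against genes called without it. The 115 genes called lower without cKO replicate 1 had a median deviation of -0.671 on that array, and 80% of them lay below the control mean, against 55.9% of all genes. For cKO replicate 2 the 108 lower genes had -0.75, and 91.7% lay below, against 55.5%. Without cKO replicate 3 the count of lower genes was 787, but on replicate 3 itself these had a median deviation of 0.018, and 47.9% lay below the control mean, against 47.5% of all genes. Genes low in replicates 1 and 2 together were thus below the control mean on replicate 3 about as often as genes overall. The 780 genes called higher without replicate 3 had a median deviation of 0.261 on it, and 81.5% of them lay above the control mean, against 52.5% of all genes. These comparisons share the control arrays and carry no p.

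**Figure D1:**
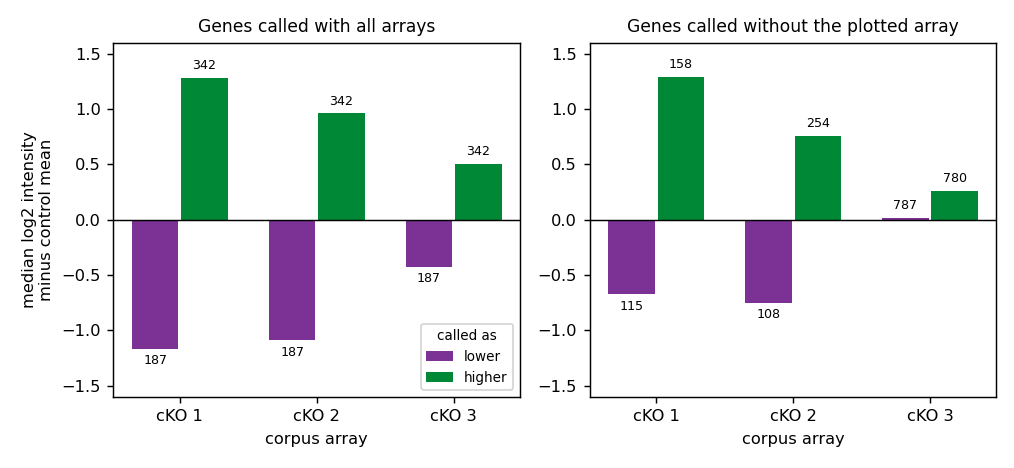
Median log2 intensity minus the control mean on each corpus cKO array, for genes called lower (purple) or higher (green) at p under 0.01 and over 1.5-fold, with their number at each bar. On the left all arrays took part in the call, and on the right the plotted array was left out of it, where the 787 lower genes reach 0.018 on cKO 3.

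Markers of position and cell type also set the arrays apart. The 21 genes of the initial segment and caput averaged 9.01, 9.49 and 8.18 on cKO replicates 1, 2 and 3, and 8.82, 9.24 and 8.94 on the control arrays. Lcn5, the lipocalin of the proximal duct, had 13.54, 13.37 and 11.54 in cKO mice, against 13.57, 13.32 and 12.98 in control mice, so that cKO replicate 3 was the lowest of the 6. The 5 markers of clear cells, which acidify the lumen, averaged 7.73, 7.36 and 8.32 in cKO mice, against 8.24, 8.13 and 8.20 in control mice. For 25 transcripts of haploid germ cells, which reach the duct with sperm, the averages were 7.33, 6.34 and 5.34 in cKO mice and 6.13, 7.11 and 7.09 in control mice. The part of these differences in the results was not tested.

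The list of secreted duct proteins, chosen with earlier results known, held lower members in the cKO corpus. Of 77 measured genes, 8 were lower past the threshold (10.4%, against 0.843% of all genes) and 0 higher, with a median log2 fold change of -0.30 against -0.03 over all genes. By array, the list's median deviation was -0.42, 0.08 and -0.57 on cKO replicates 1, 2 and 3. The shift of the median was thus absent from replicate 2, while single members were low there. The cKO and control arrays did not overlap in 18 members, all lower, whereas 6.42% of all genes lay without overlap below the controls and 6.88% above them. Leaving out 1 corpus array gave 4 lower members without control replicate 2, 5 without cKO replicate 2 and 13, beside 2 higher ones, without cKO replicate 3.

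Beta-defensins led the members past the threshold. They are small cationic peptides that act against microbes and bind to sperm. Defb37 had 8.89, 7.36 and 9.81 in cKO mice, against 10.88, 11.24 and 10.64 in control mice, which is a change of -2.24 (SE 0.48, adjusted p = 0.269) on the log2 scale. All 3 cKO arrays lay below all controls, and replicate 2 was the lowest. Defb40 had 9.14, 7.58 and 9.86 in cKO mice, against 10.45, 11.11 and 10.22 in control mice, a change of -1.73 (SE 0.45, adjusted p = 0.335). Defb43 gave 10.28, 10.19 and 11.58 in cKO mice, against 11.84, 12.36 and 11.845 in control mice, a change of -1.33 (SE 0.31, adjusted p = 0.29), with cKO replicate 3 close to the lowest control. Defb39 had 11.98, 11.42 and 11.41 in cKO mice, against 12.55, 12.62 and 12.09 in control mice, a change of -0.82 (SE 0.21, adjusted p = 0.339). Of the 42 measured genes with a Defb symbol, 8 were lower past the threshold (19%, against 0.843% of all genes) and 0 higher. The other lower ones were Defb9, Defb11, Defb14 and the pseudogene Defb44-ps. Defensin genes resemble each other in sequence, so a probe-set may read more than 1 of them.

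Further members past the threshold were Pate1, Rnase11 and the protease inhibitors Spint3 and Spink10, whereas other inhibitors of the list, such as Wfdc2 (0.401), Spint5 (-0.06) and Eppin (-0.92), did not pass in either direction. Spint3, a Kunitz-type serine protease inhibitor, had 8.65, 9.203 and 10.08 in cKO mice, against 10.69, 11.35 and 10.504 in control mice, a change of -1.54 (SE 0.32, adjusted p = 0.269). Spink10, an inhibitor of the Kazal type, gave 9.92, 10.61 and 10.61 in cKO mice, against 11.32, 11.82 and 10.96 in control mice, a change of -0.98 (SE 0.24, adjusted p = 0.319). The cKO and control values of both inhibitors did not overlap. Pate1, a cysteine-rich protein of the PATE family, had 9.27, 9.61 and 11.18 in cKO mice, against 11.24, 11.95 and 11.45 in control mice, a change of -1.52 (SE 0.43, adjusted p = 0.361). On cKO replicate 3 it reached nearly the lowest control. Rnase11, of the ribonuclease A family, had 8.02, 8.61 and 9.86 in cKO mice, against 9.64, 10.51 and 10.204 in control mice, so that cKO replicate 3 lay above control replicate 1, and its change was -1.29 (SE 0.41, adjusted p = 0.42). Crisp4, a cysteine-rich secretory protein that binds to sperm, stood outside the list and was picked after its values were seen. It had 9.51, 9.45 and 10.15 in cKO mice, against 10.85, 11.54 and 10.82 in control mice, a change of -1.37 (SE 0.36, adjusted p = 0.343).

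Other abundant products of the duct did not pass. Bsph2, of the binder of sperm protein family, had the largest fitted decrease of the list, but its cKO values of 8.42, 5.26 and 10.24 spread so widely against 10.74, 11.18 and 10.415 in control mice that its change was -2.804 (SE 0.97, adjusted p = 0.454). Pate3 had 8.87, 8.73 and 12.05 in cKO mice, against 11.97, 12.22 and 12.55 in control mice, so that replicates 1 and 2 were low and replicate 3 was within the control range (change -2.37, SE 0.97, adjusted p = 0.534). Adam7, a sperm-bound member of the ADAM family made in principal cells, gave 12.62, 12.74 and 12.86 in cKO mice, against 12.99, 13.17 and 13.03 in control mice, a change of -0.32 (SE 0.11, adjusted p = 0.468) that is below 1.5-fold. Spink5 was the member with the highest fitted change, with 11.45, 11.24 and 8.95 in cKO mice, against 9.495, 9.93 and 8.75 in control mice and a change of 1.16 (SE 0.54, adjusted p = 0.613).

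**Figure D2:**
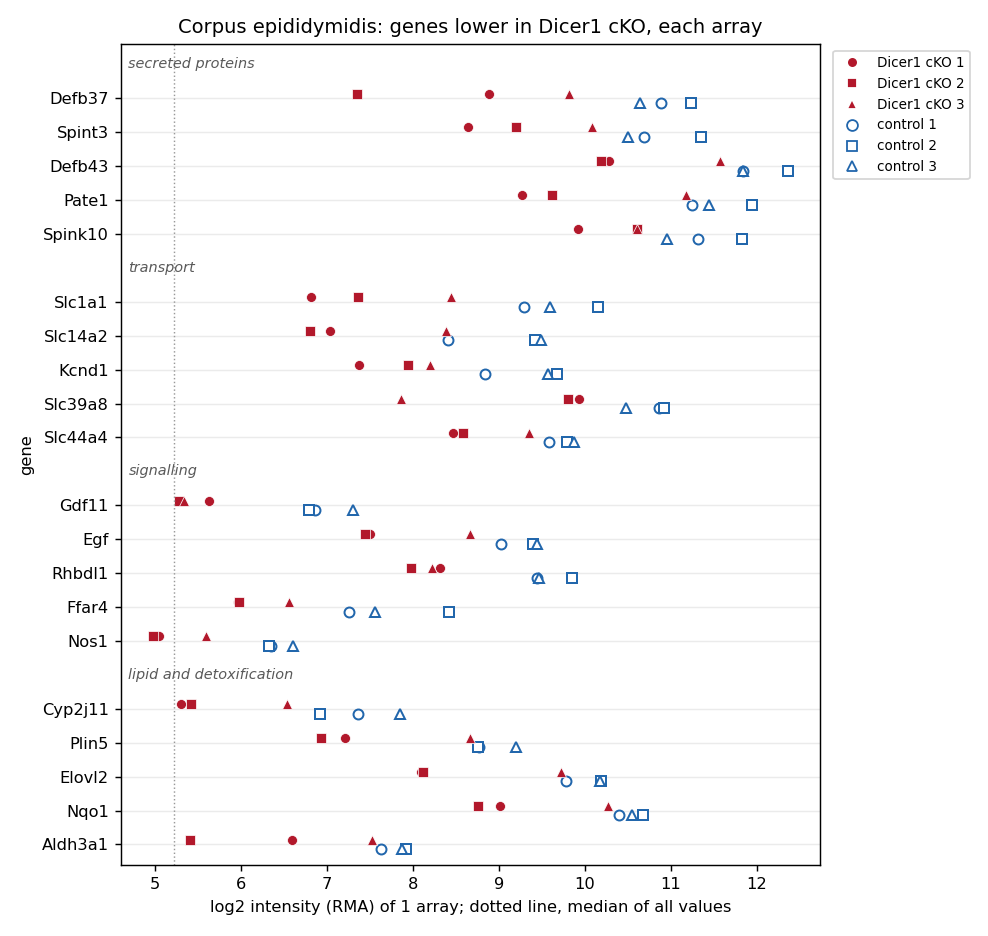
Log2 intensity of 20 genes lower in the cKO corpus, with a filled symbol for each cKO array and an open symbol for each control array, the shape giving the replicate number. Gdf11 and Rhbdl1 are low on all 3 cKO arrays, whereas for Pate1, Plin5, Elovl2 and Nqo1 cKO 3 lies beside the controls.

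Carriers and channels that condition the luminal fluid also included lower members. Of 63 measured, 7 were lower past the threshold (11.1%, against 0.843% of all genes) and 0 were higher, with a median log2 fold change of -0.19. The list averaged 6.945, 6.999 and 7.264 in cKO mice, against 7.275, 7.416 and 7.443 in control mice, so the groups did not overlap, with cKO replicate 3 next to control replicate 1. Among members, 11 lay without overlap below the controls and 2 above, where all genes had 6.42% and 6.88%. Without control replicate 2 or 3 the count of lower members was 4, and without cKO replicate 3 it was 15, with 1 higher.

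Slc1a1, a sodium-dependent glutamate transporter, had the lowest fitted value of the list. It gave 6.81, 7.36 and 8.45 in cKO mice, against 9.29, 10.15 and 9.596 in control mice, a change of -2.14 (SE 0.34, adjusted p = 0.171) on the log2 scale, or 4.40-fold lower. Kcnd1, a voltage-gated potassium channel, had 7.38, 7.94 and 8.204 in cKO mice, against 8.84, 9.68 and 9.58 in control mice, a change of -1.52 (SE 0.27, adjusted p = 0.211). In both, every cKO array lay below every control and replicate 3 was the highest of the cKO arrays. Slc14a2, a urea transporter, gave 7.04, 6.8003 and 8.39 in cKO mice, against 8.41, 9.42 and 9.49 in control mice, a change of -1.696 (SE 0.41, adjusted p = 0.311), and cKO replicate 3 nearly met control replicate 1. Slc44a4, a choline transporter-like protein, had 8.46, 8.59 and 9.35 in cKO mice, against 9.58, 9.79 and 9.87 in control mice, a change of -0.95 (SE 0.21, adjusted p = 0.29). Slc39a8, a zinc and manganese importer, departed from this order. Its values were 9.93, 9.81 and 7.86 in cKO mice, against 10.87, 10.92 and 10.48 in control mice, so that cKO replicate 3 was the lowest of all (change -1.55, SE 0.48, adjusted p = 0.393).

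The glucose transporter Slc2a3 had 7.35, 7.14 and 8.72 in cKO mice, against 8.59, 8.79 and 9.01 in control mice, a change of -1.06 (SE 0.34, adjusted p = 0.422), and replicate 3 lay within the control range. Car2, carbonic anhydrase 2, which supplies protons and bicarbonate and is also counted among clear cell genes, had 9.57, 9.05 and 10.91 in cKO mice, against 11.001, 11.35 and 11.07 in control mice, a change of -1.29 (SE 0.37, adjusted p = 0.358). Here too replicates 1 and 2 were low and replicate 3 was beside the controls. Short of the 1.5-fold limit were Slc26a2, a sulfate transporter (-0.51, SE 0.15, adjusted p = 0.383), and Slc12a2, a sodium, potassium and chloride cotransporter (0.51, SE 0.16, adjusted p = 0.393). Of the 376 genes with an Slc symbol, 6 were lower past the threshold (1.6%, against 0.843% of all genes) and 0 higher, the listed ones and the organic anion transporter Slco1b2 among them. None of 11 measured aquaporins passed in either direction.

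Ligands, receptors and other membrane proteins included genes that were low on all 3 cKO arrays. Gdf11, a secreted ligand of the TGF-beta family, had 5.64, 5.28 and 5.34 in cKO mice, against 6.86, 6.797 and 7.301 in control mice, a change of -1.57 (SE 0.23, adjusted p = 0.123). Rhbdl1, a rhomboid family membrane protein, had 8.31, 7.98 and 8.23 in cKO mice, against 9.44, 9.86 and 9.47 in control mice, and the smallest p of any lower gene, at a change of -1.41 (SE 0.17, adjusted p = 0.0757). In both genes the 3 cKO values lay closer together than they lay to any control. Ffar4, a receptor for long-chain fatty acids, gave 5.97, 5.98 and 6.57 in cKO mice, against 7.26, 8.42 and 7.56 in control mice, a change of -1.57 (SE 0.28, adjusted p = 0.211). Egf, the ligand of the epidermal growth factor receptor, had 7.501, 7.44 and 8.67 in cKO mice, against 9.03, 9.395 and 9.45 in control mice, a change of -1.42 (SE 0.297, adjusted p = 0.269), with cKO replicate 3 between the other cKO arrays and the controls. Wnt2b, a secreted Wnt ligand picked after its values were seen, had 6.07, 6.09 and 6.47 in cKO mice, against 7.22, 6.85 and 7.13 in control mice, a change of -0.85 (SE 0.17, adjusted p = 0.262).

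Of 84 growth factors and receptors listed, 2 were lower past the threshold, Gdf11 and Egf, and 4 were higher, with a median of 0.04. These are 2.38% and 4.76%, against 0.843% and 1.54% of all genes, and the higher count was 0 without cKO replicate 1, 1 and 2 without control replicates 2 and 3, and 7, beside 5 lower ones, without cKO replicate 3. The higher ones were Bmp1, a protease that trims procollagen (0.72), Pdgfb, a ligand for mesenchymal cells (0.81), Met, the receptor of hepatocyte growth factor (0.66), and Ptprc, a phosphatase of leukocytes (1.202). Bmp1 had 8.88, 8.38 and 8.19 in cKO mice, against 7.92, 7.55 and 7.81 in control mice, without overlap. Pdgfb had 7.86, 7.81 and 6.94 in cKO mice, against 6.86, 6.66 and 6.65 in control mice, with cKO replicate 3 only just above the controls.

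Fatty acid and lipid genes were lower in 4 of 74 cases (5.41%, against 0.843% of all genes) and higher in 0, with a median of -0.16. Without cKO replicate 1 or 2, or any 1 of the controls, 2 were lower, and without cKO replicate 3 there were 11 lower and 1 higher. Besides Ffar4 they were Cyp2j11, a cytochrome P450 of an arachidonic acid epoxygenase family, Plin5, which coats lipid droplets, and Elovl2, which lengthens polyunsaturated fatty acids. Cyp2j11 had 5.31, 5.42 and 6.53 in cKO mice, against 7.37, 6.93 and 7.85 in control mice, a change of -1.625 (SE 0.36, adjusted p = 0.288). Plin5 had 7.22, 6.93 and 8.67 in cKO mice, against 8.77, 8.76 and 9.197 in control mice, a change of -1.303 (SE 0.38, adjusted p = 0.383). Elovl2 gave 8.09, 8.12 and 9.72 in cKO mice, against 9.78, 10.19 and 10.18 in control mice, a change of -1.41 (SE 0.45, adjusted p = 0.42). In Plin5 and Elovl2 the cKO replicates 1 and 2 were each lower than any control by more than 1 on the log2 scale, and replicate 3 almost reached the controls.

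Detoxification and antioxidant genes passed in 2 of 50 cases, both lower (4%, against 0.843% of all genes), with a median of -0.09. The lower count was 0 without cKO replicate 1 or control replicate 2, 1 without cKO replicate 2 or control replicate 3, and 10 without cKO replicate 3, and 3 were higher without cKO replicate 2 or 3. Nqo1, a quinone reductase, had 9.01, 8.76 and 10.275 in cKO mice, against 10.402, 10.68 and 10.55 in control mice, a change of -1.197 (SE 0.32, adjusted p = 0.351). Aldh3a1, an aldehyde dehydrogenase, had 6.59, 5.41 and 7.52 in cKO mice, against 7.63, 7.92 and 7.88 in control mice, a change of -1.302 (SE 0.396, adjusted p = 0.393). Both had cKO replicate 3 just below the lowest control. Gclc, which starts glutathione synthesis, had 8.92, 8.795 and 9.46 in cKO mice, against 9.47, 9.56 and 9.65 in control mice and missed the threshold at -0.501 (SE 0.17, adjusted p = 0.43). Of the secretory pathway and glycosylation genes 1 of 57 was lower, Mgat5 (-0.755, SE 0.24, adjusted p = 0.411), and 1 higher, Mgat4a (0.597, SE 0.18, adjusted p = 0.391), both of them enzymes that branch N-glycans, with a median of -0.05. These are 1.75% each way, against 0.843% of all genes lower and 1.54% higher.

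Genes that build the epithelium itself passed the threshold in few cases. Shares past it were 3.45% lower and 3.45% higher for brush border and endocytosis genes, and 2.08% each way for junction genes. Over all genes they were 0.843% lower and 1.54% higher. Without cKO replicate 3, 6 brush border and endocytosis genes, 3 junction genes and 3 epithelial transcription factors were lower. Leaving out any other corpus array gave 0 lower brush border and endocytosis genes. The 12 measured markers of principal cells had a median of -0.15 and overlapping levels, with 0 lower past the threshold and 1 higher (8.33%), Cd9. Of 29 brush border and endocytosis genes 1 was lower, the membrane peptidase Mme, with 9.51, 9.35 and 11.31 in cKO mice, against 11.35, 11.38 and 11.53 in control mice and a change of -1.37 (SE 0.41, adjusted p = 0.388), and 1 was higher, the tetraspanin Cd9, with 9.76, 9.41 and 8.83 in cKO mice, against 8.78, 8.69 and 8.67 in control mice (0.62, SE 0.197, adjusted p = 0.417). A dimmer probe-set of Cd9 gave -0.06. Of 48 junction genes, the claudin Cldn23 was lower, with 7.004, 7.29 and 8.104 in cKO mice, against 7.98, 8.403 and 8.64 in control mice (-0.88, SE 0.27, adjusted p = 0.393), and the claudin Cldn4 was higher, with 9.302, 9.48 and 8.66 in cKO mice, against 8.16, 7.94 and 8.29 in control mice (1.02, SE 0.21, adjusted p = 0.262). None of 55 epithelial transcription factors passed in either direction, and their changes ran between -0.40 and 0.34. The keratins of simple epithelia Krt8 (0.098, SE 0.17, adjusted p = 0.938) and Krt18 (0.01, SE 0.19, adjusted p = 0.994) showed changes smaller than their errors.

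Clear cell genes had a median of -0.28 over 16 members, of which 1 (6.25%, against 0.843% of all genes) was lower past the threshold, Car2. It passed neither without cKO replicate 1 or 2 nor without control replicate 2 or 3, and 5 were lower without cKO replicate 3. Their level was 8.04, 7.83 and 8.38 in cKO mice, against 8.42, 8.37 and 8.48 in control mice, and only replicates 1 and 2 lay below the controls. Atp6v1c2, a subunit of the proton pump, had 7.04, 7.52 and 8.85 in cKO mice, against 8.49, 8.92 and 8.65 in control mice, a change of -0.88 (SE 0.35, adjusted p = 0.512). Basal cell genes had a median of 0.24 over 16 members, with 0 past the threshold. The 49 mitochondrial respiration genes lay at 9.085, 9.172 and 9.102 in cKO mice, against 9.22, 9.21 and 9.22 in control mice, without overlap but with 0 members past the threshold and a median of -0.11.

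Several further lower genes belong to no list and were picked for description after their values were seen. Cyp17a1, the 17-alpha-hydroxylase of androgen synthesis, had 8.596, 7.695 and 11.35 in cKO mice, against 11.24, 11.55 and 11.87 in control mice, a change of -2.34 (SE 0.76, adjusted p = 0.422). Ch25h, cholesterol 25-hydroxylase, had 8.17, 6.49 and 10.15 in cKO mice, against 10.11, 10.68 and 10.49 in control mice, a change of -2.16 (SE 0.65, adjusted p = 0.388). Replicate 3 lay within the control range in both. Nos1, neuronal nitric oxide synthase, had 5.04, 4.98 and 5.599 in cKO mice, against 6.35, 6.32 and 6.61 in control mice, a change of -1.22 (SE 0.196, adjusted p = 0.171). Th, tyrosine hydroxylase, gave 4.97, 4.87 and 5.52 in cKO mice, against 5.896, 5.97 and 5.96 in control mice, a change of -0.82 (SE 0.203, adjusted p = 0.321). In Nos1 and Th all cKO arrays lay below all controls, and the cKO means were below the median of all values. Pnmt, which makes adrenaline, had 5.85, 5.62 and 7.94 in cKO mice, against 7.89, 8.27 and 8.15 in control mice, a change of -1.64 (SE 0.49, adjusted p = 0.384), with replicate 3 inside the control range. Syn2, a synaptic vesicle protein named by the rule, had 8.02, 7.15 and 9.59 in cKO mice, against 9.81, 10.34 and 10.16 in control mice, a change of -1.85 (SE 0.46, adjusted p = 0.325).

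The rule for named genes took the 20 largest decreases past the stricter threshold without overlap between groups. Those not yet given are Npc1l1, the cholesterol uptake protein (-1.34, SE 0.28, adjusted p = 0.269), Necab1, a calcium-binding protein (-1.29, SE 0.32, adjusted p = 0.317), Lrmda (-1.44, SE 0.32, adjusted p = 0.288), the cytochrome P450 Cyp4f40 (-1.35, SE 0.33, adjusted p = 0.32), Serpina7, the thyroxine-binding globulin (-1.34, SE 0.32, adjusted p = 0.296), the olfactory receptor Olfr1338 (-1.33, SE 0.28, adjusted p = 0.269) and 2 predicted genes. Their values without overlap are a condition of the rule. The cKO means of Lrmda, Cyp4f40, Serpina7 and Olfr1338 lay below the median of all values, where background can limit the size of a change. The same holds for Prmt8, an arginine methyltransferase that the study names, which had 4.72, 5.32 and 5.25 in cKO mice, against 5.98, 6.24 and 5.96 in control mice, a change of -0.96 (SE 0.17, adjusted p = 0.211). The study names Prmt8, and also Ffar4 and Nos1, from these arrays, so their directions are no independent evidence.

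Among the lists other than the interferon and cell cycle ones, injury and remodelling genes and the extracellular matrix held the most higher members past the threshold. Members were not filtered against those 2 lists. Of all genes outside the 2 lists, 1.11% were higher. Of 54 injury and remodelling genes, 14 were higher (25.9%, against 1.54% of all genes) and 0 lower, with a median of 0.59. Without cKO replicate 1 the count was 8, without control replicate 2 it was 9, and without cKO replicate 3 it was 27, with 1 lower. Their level was 8.97, 8.63 and 8.42 in cKO mice, against 8.215, 7.98 and 8.01 in control mice. Every cKO array lay above every control, and cKO replicate 3 was the nearest to them. Some of these genes had been named by the study from these arrays.

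Thbs1, thrombospondin 1, a secreted glycoprotein of wounds, had 10.12, 10.097 and 8.59 in cKO mice, against 7.45, 7.39 and 6.47 in control mice, a change of 2.5000 (SE 0.38, adjusted p = 0.155). Krt19, a keratin of simple and regenerating epithelia, had 9.22, 9.77 and 9.1001 in cKO mice, against 8.26, 7.91 and 7.92 in control mice, a change of 1.33 (SE 0.18, adjusted p = 0.0874). Tnc, a matrix protein of tissue repair, had 6.998, 7.3002 and 7.13 in cKO mice, against 6.29, 5.59 and 5.46 in control mice, a change of 1.36 (SE 0.23, adjusted p = 0.211). In Krt19 and Tnc cKO replicate 3 lay well above the controls. Tubb6, a beta-tubulin, gave 9.21, 8.33 and 8.42 in cKO mice, against 7.62, 7.19 and 7.13 in control mice, a change of 1.34 (SE 0.24, adjusted p = 0.211). Itga5, a subunit of the fibronectin receptor, had 8.497, 8.499 and 7.58 in cKO mice, against 6.91, 6.71 and 6.504 in control mice, a change of 1.48 (SE 0.29, adjusted p = 0.242). Of the largest increases named by the rule, Clca3a2, of the CLCA family, had 10.84, 11.68 and 10.31 in cKO mice, against 9.43, 9.03 and 8.72 in control mice, a change of 1.88 (SE 0.33, adjusted p = 0.211). Gabrp, a subunit of a GABA receptor found in epithelia, had 8.16, 9.22 and 7.502 in cKO mice, against 6.68, 6.81 and 6.75 in control mice, a change of 1.55 (SE 0.34, adjusted p = 0.288). Pappa2, a protease that cleaves a binding protein of insulin-like growth factors, had 6.95, 7.41 and 6.34 in cKO mice, against 5.68, 5.66 and 4.9000 in control mice, a change of 1.49 (SE 0.27, adjusted p = 0.211). The remaining ones were Sirpb1c (1.597), Sectm1a (1.41) and the T cell receptor segment Trav9d-3 (1.36), of which Sirpb1c lay below the median of all values and Trav9d-3 has other probe-sets that gave as little as 0.21.

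**Figure D3:**
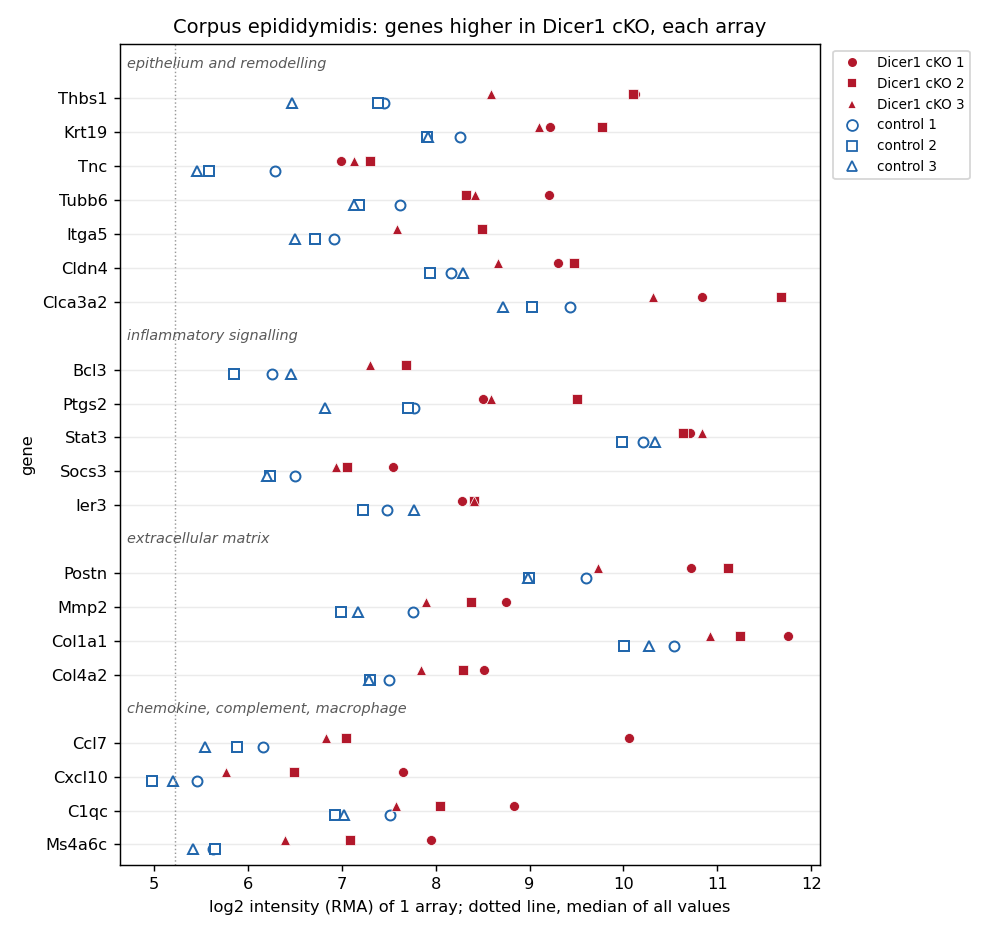
Log2 intensity of 20 genes higher in the cKO corpus, with a filled symbol for each cKO array and an open symbol for each control array, the shape giving the replicate number. Krt19, Tnc, Bcl3, Stat3 and Ier3 are high on all 3 cKO arrays, whereas for Ccl7 cKO 1 stands far above the others.

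Of 46 extracellular matrix genes, 17 were higher (37%, against 1.54% of all genes) and 0 lower, with a median of 0.60. The count was 5 without cKO replicate 1, 10 without cKO replicate 2, 6 without control replicate 2 and 7 without control replicate 3. The list averaged 9.20, 8.98 and 8.70 in cKO mice, against 8.56, 8.24 and 8.31 in control mice. Postn, periostin, had 10.72, 11.12 and 9.72 in cKO mice, against 9.602, 8.995 and 8.98 in control mice, a change of 1.33 (SE 0.303, adjusted p = 0.29). Col1a1, a chain of type I collagen, had 11.75, 11.24 and 10.92 in cKO mice, against 10.54, 10.005 and 10.28 in control mice, a change of 1.03 (SE 0.24, adjusted p = 0.305). Both had cKO replicate 3 nearest to the controls. Mmp2, which degrades basement membrane collagen, had 8.75, 8.38 and 7.902 in cKO mice, against 7.76, 6.99 and 7.17 in control mice, a change of 1.04 (SE 0.25, adjusted p = 0.308). Markers of cells that make matrix moved with this list, for fibroblasts in part through shared members. Dcn, Lum, Col1a1, Col1a2 and Col15a1 stand on both the matrix and the fibroblast list. Over 9 fibroblast markers the level was 10.09, 9.77 and 9.37 in cKO mice, against 9.36, 9.13 and 9.07 in control mice. Past the threshold 2 were higher (22.2%, against 1.54% of all genes), Col1a1 and Col1a2, which are already counted in the matrix list. Over 10 smooth muscle markers it was 9.46, 9.86 and 9.24 in cKO mice, against 9.11, 9.14 and 8.74 in control mice, with 1 higher past the threshold (10%). Their part in the matrix values was not tested.

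Inflammatory signalling genes had higher members and no lower one past the threshold. Of 46 NF-kB and acute phase genes 6 were higher (13%, against 1.54% of all genes), with a median of 0.40. The count was 4 without cKO replicate 1 or control replicate 2 and 5 without control replicate 3. It was 8 without cKO replicate 2 or control replicate 1, and 12 without cKO replicate 3. Of 23 immediate early genes 4 were higher (17.4%), with a median of 0.33, and 2 were without cKO replicate 1 or control replicate 2. Bcl3, an atypical inhibitor of NF-kB that acts in the nucleus, had 7.69, 7.69 and 7.303 in cKO mice, against 6.26, 5.85 and 6.46 in control mice, a change of 1.37 (SE 0.18, adjusted p = 0.0874). Ptgs2, the inducible cyclooxygenase, had 8.51, 9.503 and 8.59 in cKO mice, against 7.77, 7.71 and 6.82 in control mice, a change of 1.43 (SE 0.31, adjusted p = 0.288). Stat3, a transcription factor of cytokine signalling, had 10.704, 10.63 and 10.84 in cKO mice, against 10.21, 9.99 and 10.34 in control mice, a change of 0.55 (SE 0.13, adjusted p = 0.294), below 1.5-fold. Bcl3 had been named by the study from these arrays. In Bcl3 and Stat3 cKO replicate 3 lay above every control. Socs3, a feedback inhibitor of that signalling, had 7.54, 7.06 and 6.94 in cKO mice, against 6.503, 6.24 and 6.203 in control mice, a change of 0.86 (SE 0.21, adjusted p = 0.308), and a second probe-set gave 0.55. Ier3, an immediate early gene, had 8.29, 8.405 and 8.41 in cKO mice, against 7.48, 7.22 and 7.77 in control mice, a change of 0.87 (SE 0.16, adjusted p = 0.211).

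Chemokines and complement were highest on cKO replicate 1. Of 30 chemokines 3 were higher (10%, against 1.54% of all genes) and 0 lower, with a median of 0.61 that was 0.26 without cKO replicate 1. The count was 0 without control replicate 2, 1 without control replicate 3 and 12 without cKO replicate 3. The list averaged 7.27, 6.49 and 6.15 in cKO mice, against 6.08, 5.98 and 5.87 in control mice. Ccl7, which attracts monocytes, had 10.06, 7.05 and 6.83 in cKO mice, against 6.16, 5.88 and 5.55 in control mice, a change of 2.12 (SE 0.66, adjusted p = 0.398). Cxcl10, which attracts T cells and is induced by interferon, had 7.65, 6.496 and 5.77 in cKO mice, against 5.46, 4.98 and 5.21 in control mice, a change of 1.42 (SE 0.37, adjusted p = 0.34). Of 23 complement genes 7 were higher (30.4%) and 0 lower, with a median of 0.40, but 1 without cKO replicate 1 or control replicate 2 or 3 and 2 without cKO replicate 2. C1qc, a chain of C1q made largely by macrophages, had 8.83, 8.04 and 7.58 in cKO mice, against 7.51, 6.93 and 7.02 in control mice, a change of 0.997 (SE 0.27, adjusted p = 0.351). C5ar1, the receptor of C5a, had 6.29, 5.54 and 5.57 in cKO mice, against 4.83, 4.82 and 4.76 in control mice, a change of 1.001 (SE 0.24, adjusted p = 0.311). The control means of Cxcl10 and C5ar1 lay below the median of all values. None of 11 MHC class II genes passed, with a median of 0.21.

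Leukocyte markers moved with these lists, in part through shared members. C1qa, C1qb and C1qc stand on both the complement and the macrophage list, and Ccl5 on both the chemokine and the T and NK cell list. C1qa and C1qc were past the threshold and are counted as higher in both of their lists. Of 12 macrophage markers 6 were higher (50%, against 1.54% of all genes) and 0 lower, with a median of 0.88. The count was 2 without cKO replicate 1, 0 without control replicate 2 or 3 and 10 without cKO replicate 3. Their level was 9.64, 8.54 and 8.165 in cKO mice, against 8.15, 7.64 and 7.64 in control mice. Csf1r, the receptor that macrophages need, had 9.84, 9.09 and 8.73 in cKO mice, against 8.61, 8.47 and 8.38 in control mice, a change of 0.74 (SE 0.24, adjusted p = 0.422), and Ms4a6c, a gene of monocytes and macrophages, had 7.95, 7.09 and 6.39 in cKO mice, against 5.63, 5.65 and 5.42 in control mice, a change of 1.58 (SE 0.33, adjusted p = 0.269). Over 13 markers of T and NK cells the level was 6.115, 5.80 and 5.34 in cKO mice, against 5.34, 5.38 and 5.30 in control mice, with 1 higher past the threshold (7.69%). Neither B cell nor neutrophil markers were higher past the threshold, and 1 of 6 B cell markers was lower (16.7%, against 0.843% of all genes). The part of leukocytes in the chemokine, complement and remodelling values was not tested.

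**Figure D4:**
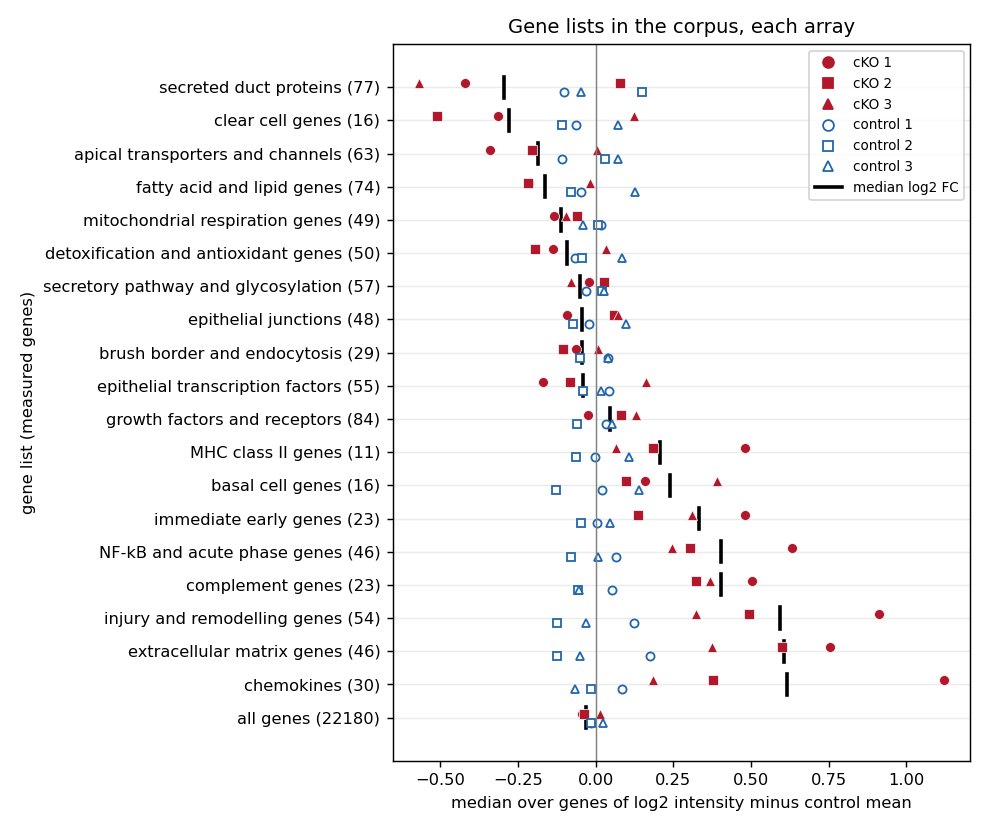
Median over each list's genes of the log2 intensity minus the control mean, with filled symbols for the cKO arrays, open symbols for the control arrays and a bar for the median log2 fold change. The number of measured genes stands beside each list. Extracellular matrix, injury and chemokine lists lie right of the controls on all 3 cKO arrays, and clear cell, transporter and lipid lists lie left of them on cKO 1 and 2 and near them on cKO 3.

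The count of calls moved most without cKO replicate 3. Without it, 861 probe-sets passed an adjusted p under 0.05, 376 higher and 485 lower, and the counts at p under 0.01 and over 1.5-fold were 787 lower (3.55% of all genes) and 780 higher (3.52%). Of the 187 lower genes 171 were still called, and 75 without cKO replicate 1, 79 without replicate 2 and 70 without control replicate 2. Without cKO replicate 3 single genes reached the adjusted threshold, Slc1a1 (-2.59, adjusted p = 0.00169), Defb43 (-1.78, adjusted p = 0.00183), Egf (-1.82, adjusted p = 0.00295), Nqo1 (-1.66, adjusted p = 0.00281) and Mme (-1.99, adjusted p = 0.00201) among them. Gdf11 had -1.53, adjusted p = 0.0171 and Rhbdl1 -1.44, adjusted p = 0.00621. This fit leaves the cKO group with 2 arrays.

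Whether the effect of the cKO differed between corpus and cauda was tested in the same fit. After adjustment limma called 0 of the 41345 differences, and 2687 (6.5%) had an unadjusted p under 0.05. Without corpus cKO replicate 3, 151 passed the adjusted threshold. Rhbdl1, for instance, had a cauda change of 0.185 and a difference, corpus minus cauda, of -1.597 (SE 0.24, adjusted p = 0.373). For Gdf11 the cauda change was 0.25 and the difference -1.82 (SE 0.32, adjusted p = 0.373). Slc1a1 had 0.06 in the cauda and a difference of -2.19 (SE 0.49, adjusted p = 0.58). Among higher genes, Thbs1 had -0.77 in the cauda and a difference of 3.27 (SE 0.54, adjusted p = 0.373), and Bcl3 had -0.09 and 1.46 (SE 0.26, adjusted p = 0.373). None of these differences passed the adjusted threshold.

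Of the 77 secreted proteins, 10 had a more negative effect in the corpus at an unadjusted p under 0.05 and 0 a more positive one, against 3.13% and 3.31% of all genes. For the 63 transporters the counts were 11 and 1, and for the 46 matrix genes 0 and 10. For some genes the fitted change had the same sign in both regions. Car2 had fitted changes of -1.29 (corpus) and -0.89 (cauda), Elovl2 -1.41 and -0.98, and the keratin Krt4, picked after its values were seen, 1.02 and 0.99. Azgp1, a secreted zinc-binding glycoprotein that the study names, had 4.76, 5.62 and 4.79 in cKO mice, against 4.92, 4.95 and 4.61 in control mice, a change of 0.23 (SE 0.56, adjusted p = 0.96), against a change of 3.04 in the cauda. Clca2 and Lrrc18, which the study names among transcripts changed in corpus or cauda, did not pass in the corpus, with changes of 0.21 and -0.15. Their changes in the cauda were 0.29 and -1.27.

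**Figure D5:**
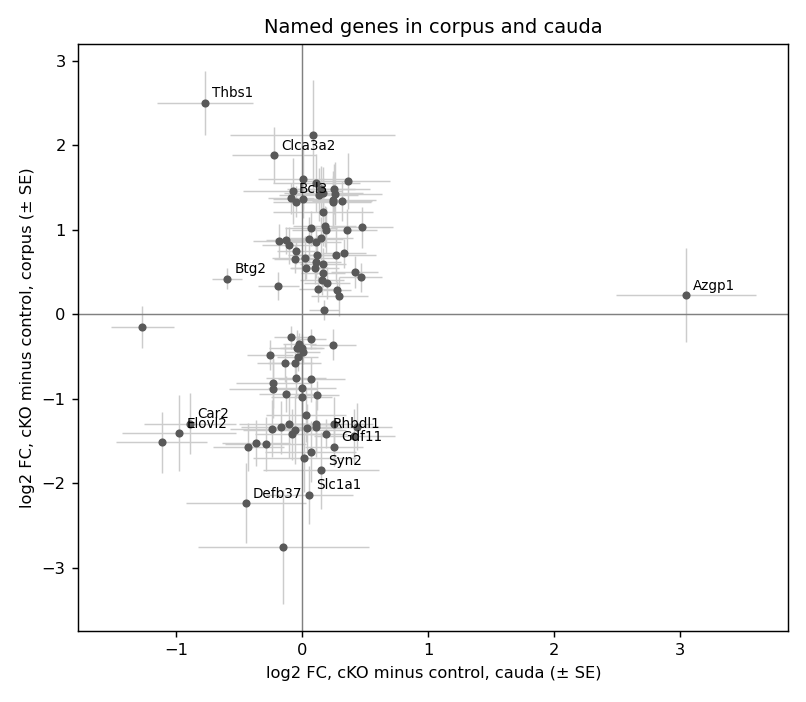
Log2 fold change, cKO minus control, in the corpus (vertical) against the cauda (horizontal) for the named genes, with standard errors from limma. Most points lie far from 0 on the corpus axis, where they were chosen, and near 0 on the cauda axis. Azgp1 lies at 0.23 and 3.04.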

How the data were processed

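Messenger RNA of the corpus and cauda epididymidis was hybridised to 12 Affymetrix whole transcript arrays (Mouse Gene 2.0 ST), 3 for each region and genotype. The authors deposited log2 intensities of probe-sets after RMA, run in Partek. RMA is also named, with no version, in the submitters' processing notes. They were used as deposited, and the number of arrays limits their precision. Of 41345 probe-sets 23521 carry 1 gene symbol in the array annotation, 1820 several and 16004 none here. Of the resulting 22180 genes, 21994 were matched by gene identifier to the RefSeq table of GRCm38.p6 and 0 symbols differed. Defb41 and Pate4 have no probe-set with 1 symbol and are not reported here.

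Means of the 4 groups were fitted to all 12 arrays with limma 3.58.1 in R 4.3.3 (8 residual degrees of freedom, 3.179 prior degrees of freedom), with two-sided tests and Benjamini-Hochberg adjustment over all probe-sets. Every p in the text comes from this fit unless another is named. Further thresholds were an unadjusted p under 0.01 with over 1.5-fold and p under 0.002 with over 2-fold. With 3 mice against 3 an exact permutation test of a single value cannot go below p = 0.1. Named genes were the 20 largest decreases and 12 largest increases at the stricter threshold without overlap, outside the interferon and cell cycle lists and without common interferon prefixes in the symbol, the 4 members with the smallest p of each of 19 lists, genes the study names, and Dicer1. Members, lists and marker sets were chosen with earlier results of these data known. Replicate numbers do not pair the mice, which differ between genotypes, and same-numbered corpus arrays had deviations that correlated at 0.0853, 0.139 and 0.208. Alternatives were each probe-set's own variance, only corpus arrays, only brighter probe-sets, further quantile normalization, median centring, array weights, replicate blocks, mean probe-sets and leaving out each array. The procedure was tested on simulated data. No sequences or coordinates are given.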

Additional observations from a re-analysis of the deposited data

Results flagged for a closer look

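The 19 lists were searched for a median deviation of opposite sign on all cKO arrays of corpus and cauda. Only immediate early genes met this rule, so their signs are a condition of the choice and test nothing. Immediate early genes, which answer stimuli within minutes, had a median deviation from the control mean above 0 on every corpus cKO array and below 0 on every cauda cKO array. It was 0.48, 0.136 and 0.309 on the corpus cKO arrays, against 0.005, -0.046 and 0.045 on the corpus control arrays. In the cauda it was -0.056, -0.304 and -0.016 on the cKO arrays, against 0.059, 0.068 and -0.055 on the control arrays, so that the groups overlapped there, and the median difference of the effect, corpus minus cauda, was 0.57. The difference of the list was not tested, and the values of its members come from the same arrays that the rule used. For single members, 9 of 23 were more positive in the corpus at an unadjusted p under 0.05 from limma and 1 was more negative. Over all genes these shares were 3.31% and 3.13%. Btg2, a growth inhibitor of this list, had 0.42 (corpus) and -0.597 (cauda), a difference of 1.02 (SE 0.17, adjusted p = 0.373).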

How the results depend on the processing

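With limma and all arrays, 0 probe-sets passed the adjusted threshold. Among brighter probe-sets 6 did and with array weights 7. The methods' pairwise contrasts called 195 genes higher and 108 lower at p under 0.01 and over 1.5-fold, and 22 and 8 at p under 0.002 and over 2-fold. A fit of the 6 corpus arrays gave 169 and 83, and 22 and 10. Array weights, lowest for corpus cKO replicate 3 at 0.492, gave 530 and 393, and 139 and 92. Since the replicate numbers do not pair the mice, the fixed replicate block is an alternative only, and with it 109 genes were higher at the stricter threshold, against 62 without it, though every corpus array correlated best with its own number. Leaving out 1 array gave 0 to 861 probe-sets at the adjusted threshold, 158 to 780 higher and 101 to 787 lower genes, 20 to 275 and 11 to 277 at the stricter threshold, and 0 to 151 for the difference between regions. The highest values came without corpus cKO replicate 3, and lower counts by over 1.5 times without corpus cKO replicates 1 and 2 and control replicates 2 and 3. Of 99 named genes 3, none of them past a threshold, changed sign without 1 corpus array: Clca2 ranged over these fits from -0.0551 to 0.3658 and Azgp1 from -0.0576 to 0.376, lowest without cKO replicates 1 and 2, and Dicer1 from -0.0126 to 0.1281, lowest without control replicate 2. Of 19 list medians 17 moved by less than the spread of the cKO arrays. That limit is wide where the cKO arrays disagree, so it shows little about stability. The secreted median was -0.12 without cKO replicate 3, against -0.30 with all arrays. The chemokine median was 0.26 without cKO replicate 1, against 0.61. The complement median was 0.71 among brighter probe-sets and 0.50 without cKO replicate 2, and the mitochondrial median -0.07 without cKO replicate 1. The cause of these changes was not tested.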

Other observations

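Some genes were far higher on corpus cKO replicate 1 than on the other cKO arrays and were picked after their values were seen. Replicates 2 and 3 also lay above all controls in the 3 genes given. Plin2, the coat protein of lipid droplets, had 10.27, 6.94 and 7.03 in cKO mice, against 6.91, 6.36 and 6.59 in control mice, a change of 1.46 (SE 0.68, adjusted p = 0.61). Cd68, a lysosomal protein of macrophages, had 11.74, 9.05 and 9.07 in cKO mice, against 8.57, 7.95 and 8.55 in control mice, a change of 1.598 (SE 0.604, adjusted p = 0.492). Timp1, an inhibitor of matrix proteases, was also highest there, with 10.07, 8.48 and 7.64 in cKO mice, against 7.56, 6.197 and 6.18 in control mice and a change of 2.08 (SE 0.603, adjusted p = 0.371). Endothelial markers averaged 7.92, 7.21 and 7.41 in cKO mice, against 7.19, 7.23 and 7.23 in control mice. Markers of adipocytes, which surround the duct in the fat pad, averaged 6.30, 7.525 and 6.42 in cKO mice, against 7.27, 7.10 and 7.21 in control mice, with 0 of 8 past the threshold.

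A few transcripts were higher in the cKO of both regions and were likewise picked after their values were seen. AY761185 had 13.36, 13.42 and 12.51 in cKO mice, against 12.08, 11.71 and 11.61 in control mice, a change of 1.295 (SE 0.25, adjusted p = 0.234), and its change in the cauda was 1.56. Krt4, a keratin of stratified epithelia, had 5.44, 5.54 and 5.64 in cKO mice, against 4.3998, 4.38 and 4.77 in control mice, and its fitted change was 1.02 (SE 0.25, adjusted p = 0.323), close to that in the cauda.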
